A study of Homo sapiens with 6 samples.

Results

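The genes described are 9 members of the Polycomb group, from the 61860 genes of the count table. They were listed by name, with earlier results of these data already known. The members are the chromobox genes CBX2, CBX6, CBX7 and CBX8, the PRC1 genes BMI1 and KDM2B, and the PRC2 core genes EZH2, SUZ12 and EED. RNA came from A498, an established cell line of human clear cell kidney carcinoma, and was sequenced in 2 groups of 3 libraries each. In PTPRZ-Si, PTPRZ1, the gene of a receptor tyrosine phosphatase, was the target of siRNA. In PTPRZ-nc, the control for that knockdown, the labels name a plasmid. Both groups are labelled as transfected or infected, and neither reagent's sequence is given in the sources used here. A difference between the groups therefore cannot be told apart from one between siRNA and plasmid.

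The libraries held 14407846 to 21469746 counts in PTPRZ-Si and 13726908 to 18609477 in PTPRZ-nc. PTPRZ1 had 0 counts in all 6 libraries, which allows at most 0.0527 CPM (the counts-per-million scale) over the PTPRZ-Si group and 0.0607 CPM over the PTPRZ-nc group (3 counts per group, counting error only). The knockdown could thus not be checked by its target. All 8 markers of kidney carcinoma epithelium had counts, with summed levels of 3340 to 3480 CPM in PTPRZ-Si and 3290 to 3360 CPM in PTPRZ-nc. Beneath these similar sums 6 of the 8 markers were called, against 27.4% of all tested genes. Among genes whose mean reached 5 CPM, 4088 of 11014 were called. CDH6 (log2 fold change 1.06), PAX8 (0.83), PAX2 (0.37), KRT18 (0.18) and KRT8 (0.13) rose and VIM fell (-0.58). PAX2 did not pass without PTPRZ-Si library 2 (adjusted p = 0.0863), PTPRZ-Si library 3 (adjusted p = 0.0552) or library 2 of both groups (0.23, adjusted p = 0.136). The immune genes PTPRC and CD3E and the endothelial gene CDH5 were at 0. Summed immune markers reached at most 1.46 CPM in PTPRZ-Si and 1.02 CPM in PTPRZ-nc, and summed endothelial markers 1.63 CPM in PTPRZ-Si and 1.1 CPM in PTPRZ-nc. Fibroblast markers summed to 21.6 to 23.8 CPM in PTPRZ-Si and 31.4 to 41.7 CPM in PTPRZ-nc, nearly all of it COL1A1. The part of these markers in the results was not tested. PTPRZ-nc library 2 stood apart from the other controls on the second principal component, which carried 17.2% of the variance. The labels do not name separate cultures, so the p-values rest on a spread among libraries that may be technical only.

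Polycomb proteins keep genes silent through 2 enzyme complexes. PRC2 places methyl groups on lysine 27 of histone H3: EZH2 is its methyltransferase, SUZ12 its scaffold, and EED the subunit that reads the finished mark and stimulates the enzyme. PRC1 attaches ubiquitin to histone H2A. Its canonical forms carry 1 CBX protein, whose chromodomain reads the methyl mark, together with a PCGF protein such as BMI1. In a variant form KDM2B takes over targeting, through a zinc finger that binds unmethylated CpG islands. The study title concerns RNF26, a ubiquitin ligase that has been described as acting on the CBX7 protein in kidney cancer cells. Protein was not measured here, and every value below is of RNA.

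E2F proteins, the transcription factors that drive genes of DNA replication, are known regulators of PRC2 genes in proliferating cells. RefSeq start sites of GRCh38.p14 (250 bases before to 50 after each start) were searched on both strands for the E2F-type motifs TTTGGCGC, TTTCCCGC, TTTCGCGC and TTTGCCGC, which cannot occupy the same 8 bases. A motif was present in the windows of 1090 of 27305 genes (3.99%). Of the 7 members with a window in that table, EZH2 and SUZ12 had one and CBX6, CBX7, BMI1, KDM2B and EED had none. Of 11 other PRC2 genes with a window 4 had one, EZH1, AEBP2, MTF2 and PHF19, and of 26 other PRC1 genes 1 had one, MGA. A match describes letters and not a bound site. Stretches of 60 bases around the motif are shown for the 6 PRC2 genes that hold one, whether or not they changed below, 5′ to 3′ on the gene's strand with the motif in capitals, and the whole CBX7 window follows, without a match.
EZH2 (chr7:148884257-148884316, minus strand): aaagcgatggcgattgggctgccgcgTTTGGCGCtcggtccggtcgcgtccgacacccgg
SUZ12 (chr17:31936792-31936851, plus strand): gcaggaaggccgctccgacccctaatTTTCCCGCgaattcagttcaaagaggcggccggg
MTF2 (chr1:93079262-93079321, plus strand): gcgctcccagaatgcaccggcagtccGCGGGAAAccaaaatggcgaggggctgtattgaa
PHF19 (chr9:120877307-120877366, minus strand): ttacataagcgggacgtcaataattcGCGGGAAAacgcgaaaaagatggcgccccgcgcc
AEBP2 (chr12:19440423-19440482, plus strand): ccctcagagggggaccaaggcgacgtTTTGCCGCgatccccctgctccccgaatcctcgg
EZH1 (chr17:42745122-42745181, minus strand): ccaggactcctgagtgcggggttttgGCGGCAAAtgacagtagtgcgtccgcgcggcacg
CBX7 (chr22:39152631-39152930, minus strand): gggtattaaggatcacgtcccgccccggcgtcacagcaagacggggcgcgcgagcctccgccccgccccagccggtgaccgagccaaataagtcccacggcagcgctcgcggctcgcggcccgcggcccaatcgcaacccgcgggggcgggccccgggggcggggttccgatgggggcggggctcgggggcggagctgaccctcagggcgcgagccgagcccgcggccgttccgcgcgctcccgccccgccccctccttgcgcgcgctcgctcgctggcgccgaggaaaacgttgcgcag
In MTF2 and PHF19 the motif lies on the other strand and reads GCGGGAAA, and in EZH1 it does so as GCGGCAAA. The CBX7 window is 77.7% G and C and holds 50 CpG steps. The EED window, with 52.3% G and C and 16 CpG steps, is the least CpG-rich among the members with a single window.

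All 9 members had enough counts to be tested. In PTPRZ-Si, CBX6 and CBX8 rose, CBX2, CBX7 and KDM2B fell, and BMI1, EZH2, SUZ12 and EED did not pass the test (edgeR's quasi-likelihood test, adjusted p of at most 0.05 over all 15476 tested genes). Among all tested genes 27.4% were called, 14% as higher and 13.4% as lower, so differences of this kind were common in these libraries. With only genes whose mean reached 5 CPM, 4088 of 11014 genes and 5 of the 9 members were called. For 7 of the 9 members the ranges of both groups were separate, against 40.8% of all tested genes. Unlike the members, that background includes genes with means below 5 CPM. The members' log2 fold changes, PTPRZ-Si over PTPRZ-nc throughout, ran from -0.33 to 0.47 with a median of -0.18, against a median of 0.001 over all tested genes. These are small changes: the median called gene of the whole table differed by 0.33 on the log2 scale, and only CBX6 exceeded that.

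**Figure D1:**
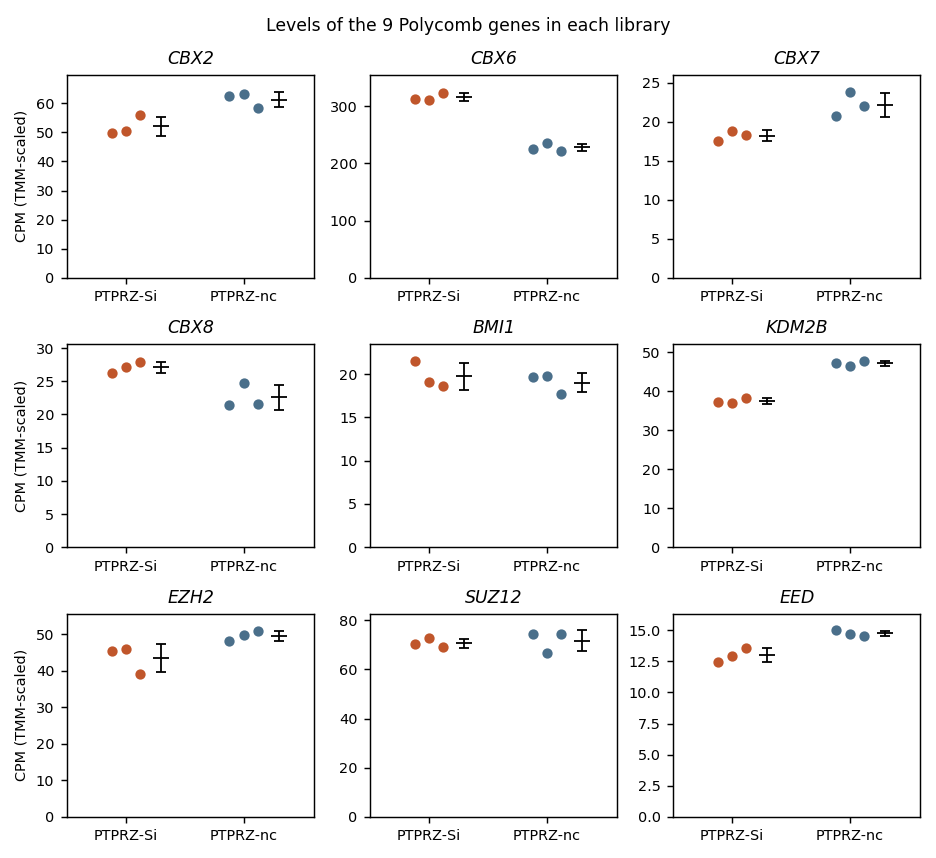
Levels of the 9 Polycomb genes in CPM (the counts-per-million scale, normalized by TMM), with a y axis from 0 in each panel. CPM is on a linear scale. Each point is 1 library (PTPRZ-Si left, PTPRZ-nc right, 3 each), and the black bar gives the mean ± SD. CBX6 lies at 310.4 to 324.1 CPM in PTPRZ-Si and 222.5 to 235.5 CPM in PTPRZ-nc, while BMI1 and SUZ12 overlap between groups.

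CBX7 (ENSG00000100307, GRCh38 chromosome 22 from 39120167 to 39152674, minus strand), the chromobox gene that also binds RNA and is known for silencing the CDKN2A locus, was lower in PTPRZ-Si. It measured 17.6, 18.9 and 18.3 CPM in PTPRZ-Si libraries 1 to 3, against 20.8, 23.8 and 22 CPM in PTPRZ-nc libraries 1 to 3. Each PTPRZ-Si library lay below each control. The log2 fold change was -0.28 (SE 0.0855, adjusted p = 0.0225), from 2130 counts over the 6 libraries. The call was lost without PTPRZ-Si library 1 (adjusted p = 0.077), PTPRZ-Si library 3 (adjusted p = 0.0642) or PTPRZ-nc library 2 (adjusted p = 0.0655, log2 fold change -0.23), and without library 2 of both groups (adjusted p = 0.0749). Reads were counted without regard to strand, and exons of CBX7 share 1338 of 7461 bases with the antisense gene AL031846.2. That gene had 15, 30 and 43 counts in PTPRZ-Si and 29, 24 and 38 in PTPRZ-nc. The pseudogene COX5BP7, on the same strand and listed at 0, shares 274 exon bases of CBX7. Read pairs in shared exons could be left out of the counting. RNF26 itself measured 39.3, 38.8 and 45.2 CPM in PTPRZ-Si and 49.7, 49.3 and 47.9 CPM in PTPRZ-nc (log2 fold change -0.25, SE 0.0695, adjusted p = 0.0128; adjusted p = 0.061 without PTPRZ-Si library 1 and 0.0697 without PTPRZ-Si library 2).

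CBX6 (chromosome 22 from 38861450 to 38872314, minus strand), the Polycomb chromobox gene 248 kb from CBX7, moved the other way. It measured 312.9, 310.4 and 324.1 CPM in PTPRZ-Si and 225.7, 235.5 and 222.5 CPM in PTPRZ-nc. Every PTPRZ-Si library was far above every control, a 1.39-fold rise (log2 fold change 0.47, SE 0.0412, adjusted p = 2.34e-07). It passed under all 14 alternatives tried. In absolute size the change of CBX6 was matched or exceeded by 14.3% of all tested genes.

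CBX2 (chromosome 17 from 79778132 to 79787983, plus strand) and CBX8 (chromosome 17 from 79792132 to 79801683, minus strand) lie 4.15 kb apart and also moved in opposite directions. CBX2, whose protein compacts chromatin, measured 49.8, 50.5 and 55.9 CPM in PTPRZ-Si and 62.5, 63.2 and 58.3 CPM in PTPRZ-nc (log2 fold change -0.23, SE 0.0631, adjusted p = 0.0107). CBX8, which like CBX7 can silence CDKN2A, measured 26.3, 27.1 and 28 CPM in PTPRZ-Si and 21.4, 24.7 and 21.6 CPM in PTPRZ-nc (log2 fold change 0.27, SE 0.0806, adjusted p = 0.0177). Neither gene overlapped between groups, but the gaps were narrow, and single libraries decided both calls. CBX2 did not pass without PTPRZ-Si library 1 (adjusted p = 0.0582) or 2 (adjusted p = 0.0528). CBX8 did not pass without PTPRZ-Si library 2 (adjusted p = 0.0537), PTPRZ-Si library 3 (adjusted p = 0.0818), PTPRZ-nc library 1 (adjusted p = 0.0834) or PTPRZ-nc library 3 (adjusted p = 0.0663).

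Levels of the 4 CBX members were set against each other per length, as CPM per kb of exon, as a description without a test. Together they summed to 56.4, 56.6 and 59.4 CPM per kb in PTPRZ-Si and 47.02, 49.6 and 46.1 CPM per kb in PTPRZ-nc. CBX6 made up most of that sum in every library, with a share of 68.5 ± 0.561% in PTPRZ-Si and 59.7 ± 0.477% in PTPRZ-nc (SD, n = 3 each). CBX2 held 15.9 ± 0.546% in PTPRZ-Si and 22.7 ± 0.611% in PTPRZ-nc (SD, n = 3 each), and its share was lower in every PTPRZ-Si library than in any control. CBX7 held 4.17, 4.47 and 4.13% in PTPRZ-Si and 5.93, 6.44 and 6.39% in PTPRZ-nc. That was the smallest share of the 4 in all 6 libraries, and the groups did not overlap. The 4 genes are divided by a common sum, which was larger in PTPRZ-Si as CBX6 rose. The lower shares of CBX2 and CBX7 therefore partly restate the rise of CBX6. The share of CBX8 overlapped between groups, at 11.3 ± 0.163% in PTPRZ-Si and 11.4 ± 0.536% in PTPRZ-nc (SD, n = 3 each), although its own level rose.

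**Figure D2:**
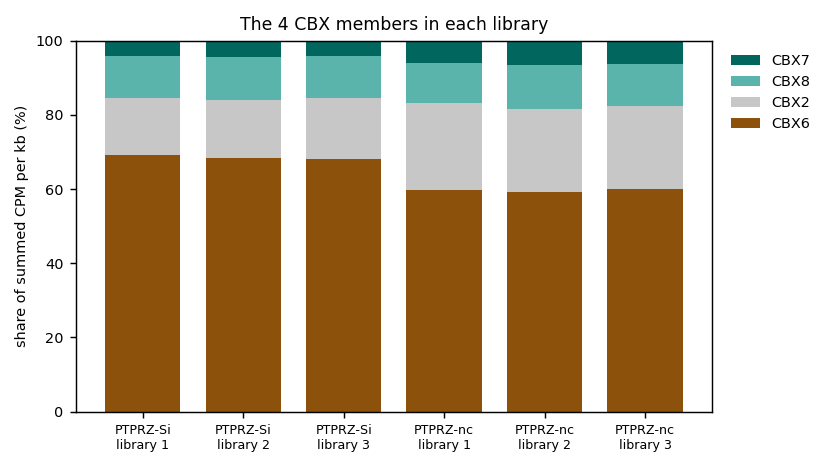
Shares of CBX2, CBX6, CBX7 and CBX8 in their summed CPM per kb of exon, in percent, 1 stacked bar per library (PTPRZ-Si left, PTPRZ-nc right). The CBX6 segment is taller in the PTPRZ-Si libraries (68.5% on average, against 59.7% in PTPRZ-nc), and CBX7, at the top, is the thinnest segment in every bar.

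KDM2B (ENSG00000089094, chromosome 12 from 121429097 to 121581015, minus strand), the CpG island reader and histone H3 lysine 36 demethylase, had the smallest adjusted p of the members that fell. It measured 37.3, 37 and 38.4 CPM in PTPRZ-Si and 47.3, 46.6 and 47.7 CPM in PTPRZ-nc. The libraries of each group lay close together, and the groups were well apart. The log2 fold change was -0.33 (SE 0.0614, adjusted p = 6.64e-04), and KDM2B passed under all 14 alternatives. RNF34, on the opposite strand, shares 439 of the 13623 exon bases of KDM2B.

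BMI1 (chromosome 10 from 22321211 to 22331484, plus strand), the PCGF protein of canonical PRC1, measured 21.5, 19.1 and 18.7 CPM in PTPRZ-Si and 19.6, 19.7 and 17.7 CPM in PTPRZ-nc. The groups overlapped (log2 fold change 0.05, SE 0.0905, adjusted p = 0.73). BMI1 shares 1000 exon bases with the readthrough gene COMMD3-BMI1, which is listed at 0, and read pairs in shared exons could be left out of the counting. PCGF2, the alternative to BMI1, had 2 counts over the 6 libraries, and 12 of the 21 protein-coding genes within 500 kb of it had under 100. RING1, 1 of the 2 catalytic subunits of PRC1, had 3 counts, and 31 of its 37 protein-coding neighbours had under 100. Counts this low in such stretches do not show that PCGF2 or RING1 is silent, so the share of BMI1 (99.9 ± 0.177% in PTPRZ-Si and 99.9 ± 0.209% in PTPRZ-nc, SD, n = 3 each, exact permutation p = 1) carries no comparison. The other catalytic subunit, RNF2, measured 22.1, 23.9 and 21.9 CPM in PTPRZ-Si and 24.9, 19 and 22 CPM in PTPRZ-nc (adjusted p = 0.806).

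None of the 3 PRC2 core genes passed. EZH2 (ENSG00000106462, chromosome 7 from 148807383 to 148884321, minus strand) was closest, at 45.5, 46 and 39 CPM in PTPRZ-Si and 48.1, 49.8 and 50.7 CPM in PTPRZ-nc (log2 fold change -0.19, SE 0.0709, adjusted p = 0.0547). All PTPRZ-Si libraries were below all controls, and PTPRZ-Si library 3 was the lowest by a wide margin. Without that library the log2 fold change was -0.12 (adjusted p = 0.288). EZH2 was called lower without PTPRZ-Si library 2 (adjusted p = 0.0421), without library 2 of both groups (adjusted p = 0.0167), with no filter on low counts (adjusted p = 0.0327) and by limma-voom (adjusted p = 0.0454). EED (chromosome 11 from 86244544 to 86278813, plus strand) measured 12.5, 13 and 13.6 CPM in PTPRZ-Si and 15, 14.7 and 14.6 CPM in PTPRZ-nc, with no overlap but few counts, 1471 in all (log2 fold change -0.18, SE 0.0959, adjusted p = 0.19). SUZ12 (chromosome 17 from 31937018 to 32001045, plus strand) overlapped between the groups, with 70.3, 72.7 and 69.1 CPM in PTPRZ-Si and 74.3, 66.7 and 74.3 CPM in PTPRZ-nc (log2 fold change -0.02, SE 0.0571, adjusted p = 0.809).

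EZH1, the alternative methyltransferase, measured 28.5, 28.8 and 29.6 CPM in PTPRZ-Si and 28.8, 27.8 and 29.1 CPM in PTPRZ-nc (log2 fold change 0.02, adjusted p = 0.871). Per length, EZH2 held 71.1, 71.2 and 67% of the sum of both in PTPRZ-Si and 72.1, 73.5 and 73% in PTPRZ-nc. EZH2 was thus the larger part in all 6 libraries, and the groups did not overlap (exact 2-sided permutation p = 0.1, the smallest that 3 against 3 libraries allow, and 0.2 adjusted over 2 share tests).

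Per kb of exon, the order of the 9 members was the same in both groups: CBX6, SUZ12, EZH2, CBX2, CBX8, BMI1, KDM2B, CBX7 and EED. CBX6 stood far above the rest, at 39.3 ± 0.905 CPM per kb in PTPRZ-Si and 28.4 ± 0.844 in PTPRZ-nc (SD, n = 3 each). SUZ12 followed at 10.8 ± 0.28 CPM per kb in PTPRZ-Si and 11 ± 0.667 in PTPRZ-nc, and EED was lowest at 1.86 ± 0.0813 CPM per kb in PTPRZ-Si and 2.1 ± 0.033 in PTPRZ-nc. The ranges of EZH2 and CBX2 overlapped in both groups and those of SUZ12 and EZH2 in PTPRZ-nc, so these neighbours were not separated there. All other neighbours in the order were separated by the spread of the libraries, which leaves out any error in exon length. The lengths cover the exons of all annotated transcripts, and the order depends on them. By CPM alone KDM2B (37.6 in PTPRZ-Si and 47.2 in PTPRZ-nc) stood above CBX8 (27.1 and 22.6) and BMI1 (19.8 and 19). BMI1 may also lack read pairs in the exons it shares with COMMD3-BMI1.

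Beyond the members, 51 further genes of the Polycomb system were listed, of which 45 passed the filter on low counts. Among them 9 rose, 9 fell and 27 did not pass, so 18 of 45 were called against 27.4% of all tested genes, and their median log2 fold change was 0.02. With only genes whose mean reached 5 CPM, 18 of the 45 were called, against 4088 of 11014 genes. Of the 18 calls 11 held under all 14 alternatives. Of 25 other PRC1 genes tested 4 rose and 5 fell. Among those that fell was DCAF7, the WD-repeat partner of the PCGF3 and PCGF5 complexes, with 86.1, 83.5 and 87.7 CPM in PTPRZ-Si and 121, 123 and 123 CPM in PTPRZ-nc (log2 fold change -0.51, SE 0.047, adjusted p = 4.04e-07). CSNK2A1, the kinase subunit found with AUTS2 in those complexes, rose (0.37, SE 0.0505, adjusted p = 3.17e-05). BCORL1, a scaffold related to BCOR of the variant complex that KDM2B targets, rose as well (0.44, SE 0.0898, adjusted p = 0.00134), while its PCGF subunit PCGF1 gave 0.15 (adjusted p = 0.161).

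Genes of PRC1.6, the variant complex that carries DNA-binding proteins of the E2F and MYC-related families, moved both ways. PCGF6, its PCGF subunit, measured 13.5, 13.7 and 16.3 CPM in PTPRZ-Si and 19.63, 21.7 and 19.95 CPM in PTPRZ-nc, a fall of all 3 libraries below all controls (log2 fold change -0.48, SE 0.098, adjusted p = 0.00127). L3MBTL2, a methyl-lysine reader, fell (-0.26, SE 0.0649, adjusted p = 0.0069). Without library 2 of both groups L3MBTL2 gave -0.15 (adjusted p = 0.062). E2F6, a repressor of the E2F family, rose to 42.9, 42.5 and 40.6 CPM in PTPRZ-Si, against 29.7, 32.2 and 30.03 CPM in PTPRZ-nc (log2 fold change 0.46, SE 0.0674, adjusted p = 7.35e-05). MGA and MAX, its other DNA-binding subunits, did not pass (0.04 and -0.11). WDR5 was lower by a small amount (-0.15, SE 0.0514, adjusted p = 0.0444), a call lost without any 1 of the 6 libraries (adjusted p of 0.0509 to 0.15) and without library 2 of both groups (-0.09, adjusted p = 0.225).

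The remaining PRC1 calls were PHC2, a polyhomeotic protein that links PRC1 units together, which fell (-0.20, SE 0.0457, adjusted p = 0.00335), and RYBP, which takes the place of a CBX protein in variant PRC1. RYBP rose (0.25, SE 0.0854, adjusted p = 0.0351), but not without PTPRZ-Si library 1 (adjusted p = 0.161), PTPRZ-Si library 2 (adjusted p = 0.106) or PTPRZ-nc library 2 (0.16, adjusted p = 0.107), and not without library 2 of both groups (0.14, adjusted p = 0.178).

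Of 9 tested accessory PRC2 genes 2 fell, 1 rose and 6 did not pass. The Polycomb-like genes MTF2 and PHF19, which bring PRC2 to CpG islands and to chromatin, both fell. MTF2 measured 30.2, 33.1 and 35.2 CPM in PTPRZ-Si and 39.3, 49.8 and 46 CPM in PTPRZ-nc (log2 fold change -0.45, SE 0.0853, adjusted p = 7.87e-04). PHF19 measured 80.5, 79.6 and 87.3 CPM in PTPRZ-Si and 102, 101 and 98.3 CPM in PTPRZ-nc (log2 fold change -0.29, SE 0.0521, adjusted p = 5.35e-04). Both carry the E2F-type motif shown above, as do AEBP2, EZH1, EZH2 and SUZ12, which did not pass the test. The third Polycomb-like gene, PHF1, had 49 counts in all and was not tested, and 25 of its 32 protein-coding neighbours within 500 kb had under 100 counts. RBBP4, a histone chaperone of PRC2 and of several other complexes, rose to 95.5, 96 and 98.4 CPM in PTPRZ-Si, against 76.2, 75 and 75.4 CPM in PTPRZ-nc (log2 fold change 0.36, SE 0.0483, adjusted p = 3.11e-05), although exons of SYNC on the opposite strand share 1706 of its bases. JARID2 (0.20, adjusted p = 0.117) and AEBP2 (-0.07, adjusted p = 0.494), the partners of the second PRC2 form, did not pass.

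Both demethylases that remove the PRC2 mark rose. KDM6B measured 38.8, 42.2 and 42.9 CPM in PTPRZ-Si and 32.8, 30.8 and 32.3 CPM in PTPRZ-nc (log2 fold change 0.37, SE 0.0687, adjusted p = 6.08e-04). KDM6A measured 34.9, 31.2 and 35 CPM in PTPRZ-Si and 27.6, 28.2 and 28.6 CPM in PTPRZ-nc (log2 fold change 0.26, SE 0.0732, adjusted p = 0.0145). KDM6A did not pass without PTPRZ-Si library 1 (adjusted p = 0.0662), PTPRZ-Si library 3 (adjusted p = 0.0798) or PTPRZ-nc library 1 (adjusted p = 0.0556). In the complex that removes ubiquitin from H2A, the enzyme BAP1 gave 0.01 (adjusted p = 0.92) and its partners ASXL1 (-0.16, adjusted p = 0.0254) and ASXL2 (0.26, adjusted p = 0.00308) moved in opposite directions. FOXK1 (-0.15, adjusted p = 0.0332) and OGT (0.13, adjusted p = 0.0114) were also called. Of these 4, only ASXL2 kept its call without each single library: ASXL1 lost it without PTPRZ-Si library 1 or 3 or PTPRZ-nc library 1 (adjusted p of 0.0663 to 0.134), FOXK1 without PTPRZ-Si library 1 or 2 or PTPRZ-nc library 1 (adjusted p of 0.0712 to 0.173) and OGT without PTPRZ-Si library 1 (adjusted p = 0.0755). FOXK1 gave -0.09 (adjusted p = 0.172) without library 2 of both groups.

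The 3 chromobox genes of the HP1 family, which read methylated lysine 9 of histone H3 instead, were set beside the Polycomb ones. CBX1 fell to 127, 139 and 131 CPM in PTPRZ-Si, against 166, 179 and 164 CPM in PTPRZ-nc (log2 fold change -0.36, SE 0.0496, adjusted p = 3.64e-05). CBX3 fell by less (-0.15, SE 0.0438, adjusted p = 0.0184), not passing without PTPRZ-Si library 1 (adjusted p = 0.0774), PTPRZ-Si library 3 (adjusted p = 0.116) or PTPRZ-nc library 3 (adjusted p = 0.0625). CBX5 gave -0.09 (adjusted p = 0.209).

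**Figure D3:**
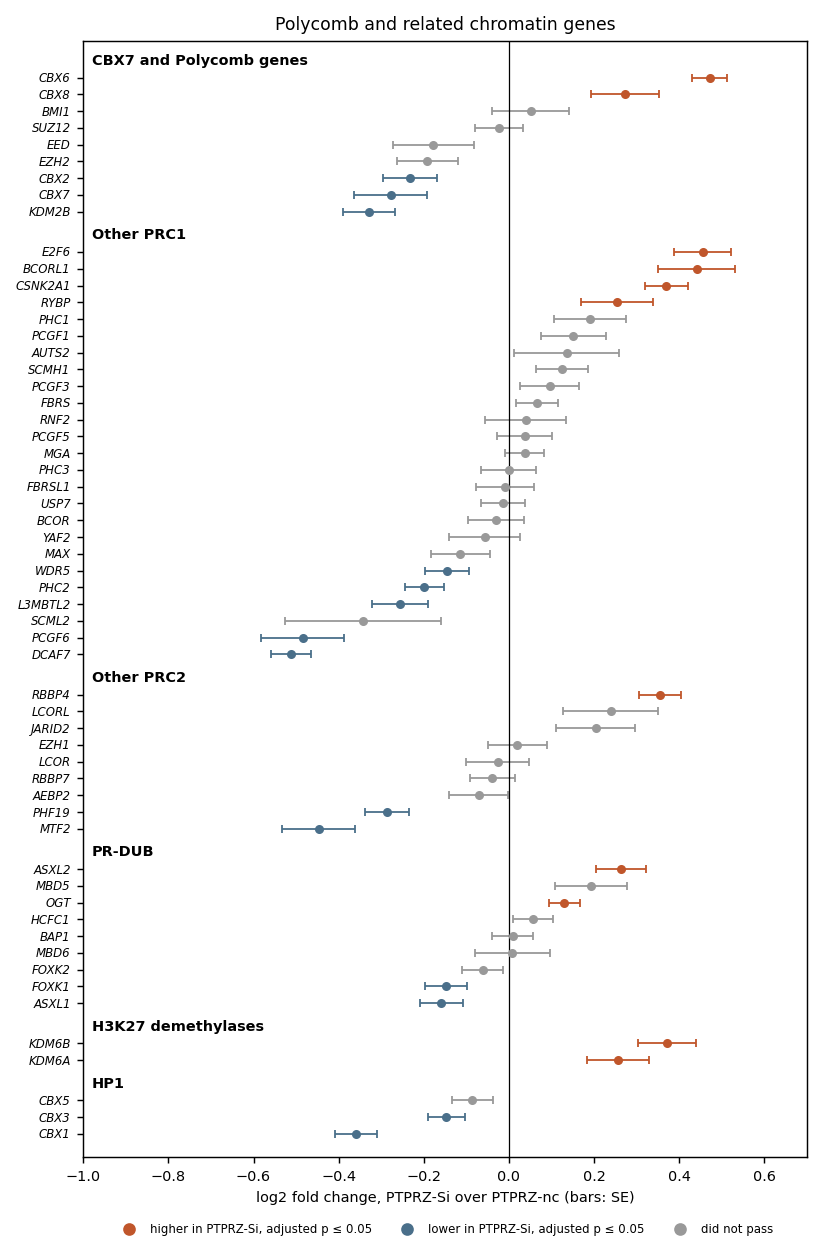
Log2 fold changes of PTPRZ-Si over PTPRZ-nc with their SE for the 9 members and the tested genes of the other Polycomb and HP1 lists, sorted within each list. Colour marks genes called higher or lower at an adjusted p of at most 0.05. Calls lie on both sides of 0 in the members, other PRC1, other PRC2 and PR-DUB lists, from DCAF7 at -0.51 to CBX6 at 0.47.

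HOX genes, which set position along the body axis and are the classical targets of Polycomb silencing, were read as a list of 39, of which 34 were tested. Of these 7 rose, 1 fell and 26 did not pass, with 14% of all tested genes called higher and 13.4% called lower for comparison, and the median log2 fold change was 0.11. In the HOXA cluster 5 of 11 rose and in the HOXB cluster 2 of 8, and 1 of 8 fell in the HOXD cluster. The 7 tested HOXC genes had a median log2 fold change of 0.03. HOXA10 measured 67.2, 64.8 and 66.1 CPM in PTPRZ-Si and 44, 46.6 and 45.3 CPM in PTPRZ-nc (log2 fold change 0.54, SE 0.057, adjusted p = 1.75e-06). HOXA3 measured 45.2, 47 and 46.4 CPM in PTPRZ-Si and 31, 29.4 and 31.9 CPM in PTPRZ-nc (log2 fold change 0.59, SE 0.0653, adjusted p = 3.47e-06). HOXA5 (0.58, SE 0.0825, adjusted p = 5.25e-05) and HOXB4 (0.57, SE 0.0921, adjusted p = 1.86e-04) rose too. HOXD9 fell to 13.8, 14.9 and 18.7 CPM in PTPRZ-Si, against 20.9, 25.5 and 19.4 CPM in PTPRZ-nc (log2 fold change -0.45, SE 0.12, adjusted p = 0.00921), with PTPRZ-Si library 3 and PTPRZ-nc library 3 close to each other and no call without PTPRZ-Si library 1 (adjusted p = 0.0509) or without library 2 of both groups (-0.29, adjusted p = 0.0723).

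The other 3 that rose, named after their values were seen, were HOXA6 (0.93, SE 0.237, 282 counts in all), HOXA7 (0.62, SE 0.155) and HOXB2 (0.31, SE 0.0704). Without library 2 of both groups HOXA7 gave 0.38 (adjusted p = 0.0524). Immediate neighbours of risen genes did not all move: HOXA9, next to HOXA10, gave -0.03 (SE 0.0527, adjusted p = 0.755), and HOXA4 gave -0.20 (SE 0.155, adjusted p = 0.377). HOX genes overlap antisense genes and each other, and strand was not used in the counting. HOXA-AS3, with 256 counts in all, shares 1507 exon bases with HOXA7 and 505 with HOXA6.

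**Figure D4:**
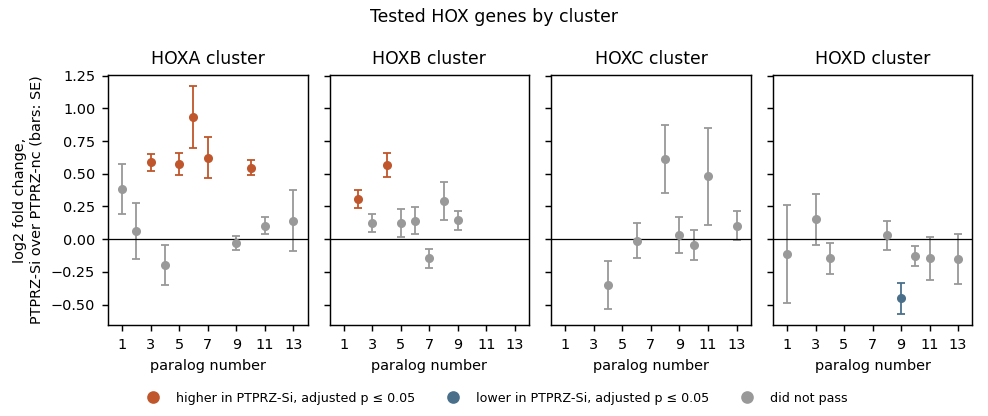
Log2 fold changes of PTPRZ-Si over PTPRZ-nc with their SE for the 34 tested HOX genes, 1 panel per cluster, by paralog number within the cluster. The 7 genes called higher lie in the HOXA and HOXB clusters, and HOXD9, at -0.45, is the gene called lower.

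Of 14 other genes listed as textbook Polycomb targets only GATA6 and TBX3 were tested. CDKN2A and CDKN2B, the cell cycle inhibitor genes that CBX7 and BMI1 are best known for silencing, had 0 counts in all 6 libraries, which allows up to 0.0527 CPM in PTPRZ-Si and 0.0607 CPM in PTPRZ-nc over each group. Why both stood at 0 was not tested, so these counts show nothing about silencing by CBX7 or BMI1. TBX3, a transcription factor of limb and gland development, fell to 37.7, 37.3 and 38.2 CPM in PTPRZ-Si, against 50.8, 44.7 and 43.9 CPM in PTPRZ-nc (log2 fold change -0.30, SE 0.0695, adjusted p = 0.00368). GATA6 did not pass (-0.10, adjusted p = 0.47).

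Replication genes driven by E2F are given beside PRC2 because EZH2 is known to be expressed with them. All 13 genes of this list were tested: 10 fell and 3, CCNE2, TYMS and E2F1, missed the threshold. Among all tested genes 13.4% fell, and the median log2 fold change of the list was -0.23. RRM2, a subunit of ribonucleotide reductase, measured 129.7, 124.7 and 123.5 CPM in PTPRZ-Si and 190.0, 195.0 and 201.9 CPM in PTPRZ-nc (log2 fold change -0.64, SE 0.045, adjusted p = 1.95e-08). The helicase subunits MCM4 (-0.32) and MCM6 (-0.26) and the sliding clamp PCNA (-0.23) fell too. The calls of 2 further helicase subunits, MCM3 and MCM5, rested on single libraries. MCM3 (-0.19) did not pass without any 1 of PTPRZ-Si libraries 1, 2 and 3 (adjusted p of 0.0531 to 0.0774), without PTPRZ-nc library 2 (-0.11, adjusted p = 0.0638) or without library 2 of both groups (-0.10, adjusted p = 0.142). MCM5 (-0.16) did not pass without PTPRZ-Si library 1 or 2 or PTPRZ-nc library 1 (adjusted p of 0.0597 to 0.072). The change of EZH2, at -0.19, lies inside the range of this list, -0.64 to -0.12. So do those of CBX2 (-0.23), CBX7 (-0.28), KDM2B (-0.33) and EED (-0.18), so the range does not set EZH2 apart. CBX7, KDM2B and EED had no E2F-type motif in their windows, and CBX2 had no window to search. The E2F-type motif was present in 9 of the 10 replication genes that had a start-site window. These genes were listed because E2F drives them, so that share tests nothing about PRC2 genes. Whether the lower replication genes bear on EZH2, MTF2 or PHF19 was not tested.

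The search for genes whose profile over the 6 libraries was most like that of CBX7 covered 11017 other tested genes. Each had a symbol and a mean of at least 5 CPM after TMM scaling. Profiles were compared by the root mean square difference of log2 CPM, each gene centred on its own mean. The 5 nearest were MTR, methionine synthase (0.0223), APPL2, an endosomal adaptor (0.023), GPRIN1 (0.0242), RAB3GAP1, a regulator of RAB proteins (0.0283), and EEIG2 (0.0288), with log2 fold changes of -0.26 to -0.30. MTR measured 100, 106 and 102.4 CPM in PTPRZ-Si and 119.5, 130.9 and 125.9 CPM in PTPRZ-nc. Among the members, KDM2B (0.0776), CBX2 (0.0845) and EED (0.0892) lay nearest to CBX7 on the same measure, and 5.3% to 8.78% of genes lay nearer than each of them. CBX6 lay farthest (0.38), with 94.3% of genes nearer.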

How the data were processed

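RNA of 6 A498 libraries was sequenced, 3 per group, with groups and replicate numbers from the labels. The authors deposited counts of read pairs per gene, not normalized. Per the file headers they come from featureCounts 2.0.1 in paired mode over exons of the Ensembl 107 annotation of GRCh38, with no strand option and no option for read pairs that fall in several genes or places, so pairs shared by overlapping genes or near-identical copies can be missing. The build is hg38 per the submitters' processing notes. The header's input names carry the word hisat, with no version. The library kit keeps strand, per the labels' protocols, but the counting did not use it.

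Genes passing filterByExpr (15476) were scaled by TMM and tested with edgeR 4.0.16 (glmQLFit, glmQLFTest, 2-sided) in R 4.3.3, with Benjamini-Hochberg adjustment over all of them. Coordinates and exon lengths are those of GENCODE 29 (GRCh38), since the table gives no lengths although the plan assumed it did. Shares were compared by exact permutation tests (scipy 1.17.1). Alternatives used DESeq2 1.42.0, limma 3.58.1, other scalings and filters, a replicate block and leaving out libraries. As a check for duplicated libraries, a chi-square statistic over genes gave 2.16 to 6.11 per degree of freedom for the pairs inside a group. No pair was treated as a duplicate, and each library was counted once. The test procedure was checked on simulated data, in which 38% of genes changed 1.25-fold and 80% of genes changed 1.5-fold were recovered. A gene that did not pass may therefore still have changed by a small amount. Every simulated gene was given the same spread between libraries beyond counting error, so the recovery rates need not hold for the members.

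Members, gene lists and the rule for named genes were chosen with earlier results of these data known. That rule takes the members, PTPRZ1, RNF26, RING1, RNF2, PCGF2 and EZH1 always, the called genes of the Polycomb and HP1 lists, up to 4 called genes per direction of the target and replication lists by smallest p, and the 5 genes most like CBX7. Genes named as not passing, as neighbours or as untested, the markers, MCM3 and MCM5 were added after their values were seen. A further gene and a planned share that needs it are not reported here, and the counts of the other PRC1 list leave that gene out.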

Additional observations from a re-analysis of the deposited data

How the results depend on the processing

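EED, BMI1 and CBX7 had the fewest counts among the members, and no alternative varied the depth. Genes in stretches with few counted neighbours (RING1, PHF1, PCGF2) could not be compared. CBX6 and KDM2B kept their direction and their call under all 14 alternatives. Counts of called members ran from 3 to 4 without a single library, against 5, and the other alternatives gave 5 or 6. The number of other Polycomb genes called ran from 12 to 18 and of HOX genes from 7 to 9 without a single library, against 18 and 8, and all genes called from 3182 to 4425, against 4243. With the replicate block 5 members, 17 other Polycomb genes, 8 HOX genes and 4101 genes in all were called. Same-numbered libraries showed weak correlations of their deviations from the group means (0.0283, 0.0615 and -0.0383). With 3 libraries per group these values cannot show whether same-numbered libraries shared a culture or batch. WDR5 did not pass under that block (adjusted p = 0.0659) or by DESeq2 (adjusted p = 0.0607). CBX7 had a log2 fold change of -0.32 to -0.23 without a single library and -0.25 without library 2 of both groups, a setting chosen after seeing the data. BMI1 changed sign without PTPRZ-Si library 1 (-0.012) and PTPRZ-nc library 3 (-0.0026), and SUZ12 without PTPRZ-nc library 1 (0.0015) and library 3 (0.00026), none of them called; without a single library BMI1 ran from -0.012 to 0.089 and SUZ12 from -0.072 to 0.0015. Without a single library the EZH2 share differed by -3.74 to -1.67 percentage points, and that of BMI1, which carries no comparison, by -0.102 to 0.121. Scaling by DESeq2 size factors or upper quartiles changed no count of called members, other Polycomb genes or HOX genes.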
